A study of Homo sapiens with 4 samples.

Results

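The genes described here are 10 members of the ATF4 and unfolded-protein response programs, ATF4, DDIT3, TRIB3, CHAC1, ASNS, PSAT1, PHGDH, SESN2, XBP1 and HERPUD1. They were chosen by name, and their rows were found among 28729 genes of the deposited expression table through their Ensembl identifiers. RNA-seq had been carried out on TU-177, an established line of laryngeal squamous cell carcinoma (LSCC), in 4 libraries. The NC libraries, 2 in number, came from cells transduced with a negative-control lentivirus, and the SKA3-KD libraries, also 2, from cells transduced with a lentivirus that carried an shRNA against SKA3. SKA3 is a subunit of the complex that holds kinetochores on spindle microtubules. The cells of all 4 libraries shared the lentiviral transduction and the selection with puromycin that began at 48 h. No library therefore came from untreated cells. The labels describe resistant cells, name no clone and do not say that replicates were separate cultures, and the p-values therefore measure the spread between these libraries, which may be technical. The study's methods describe guide RNAs for its stable SKA3 knockdown cells and siRNAs for in vitro work. They also describe lentiviral shRNAs in LSCC lines, TU-177 among them, with puromycin after 48 h. They do not say which reagent was in the sequenced cells, and the shRNA of the labels was followed here.

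ATF4 is a transcription factor whose mRNA is translated better when the initiation factor eIF2alpha is phosphorylated, as it is under amino acid shortage, haem shortage, viral infection or stress of the endoplasmic reticulum (ER). It switches on genes for amino acid synthesis and uptake and, when stress lasts, genes linked to cell death. The unfolded-protein response is the set of signals that the ER sends when misfolded proteins build up in it, through the sensors PERK, IRE1 and ATF6. PERK phosphorylates eIF2alpha and so feeds into ATF4, IRE1 splices the XBP1 mRNA, and ATF6 is cut to release a transcription factor. Because ATF4 and XBP1 are controlled largely by translation and splicing, the amount of their mRNA is only part of their regulation, and FPKM values per gene carry no information on either step.

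The promoters of these genes are known for a few short elements. The windows that hold them are shown here because they mark which members carry the letters searched for. The RefSeq promoter table (GRCh38.p14) covers the 250 bases before and 50 bases after each start site, and all 10 members have a window in it. The C/EBP-ATF response element, read as TGATGNAAN on either strand, was found in the windows of 3 members, ASNS, CHAC1 and HERPUD1, and in those of 4.45% of 27305 genes. The ER stress response element, CCAAT and CCACG with 9 bases between them, was found in 1 member, XBP1, and in 0.0916% of genes. Only this form was searched. The HERPUD1 stretch below also holds attgg, which is CCAAT on the other strand, and ccacg with 1 base between them, which the search did not cover. The element read as TGACGTGN, linked to XBP1 and ATF6, was in the windows of 0 members and of 2.39% of genes. These are matches of letters and not measured binding sites. The capitals mark the element in each stretch, which is given on the strand of the gene. Distances are counted from the start sites of the RefSeq table. For CHAC1 and ASNS the gene spans given further below begin upstream of those sites, and the element lies inside the span. HERPUD1 at chr16:56931892-56932047 (+) has its element 177 bases before the start site, CHAC1 at chr15:40953251-40953279 (+) at 210 bases, ASNS at chr7:97872458-97872486 (-) at 68 bases and XBP1 at chr22:28800593-28800631 (-) at 52 bases. HSPA5, the ER chaperone BiP and the usual marker of this response, is shown beside them, at chr9:125241371-125241429 (-) with its element 66 bases before the start site.
HERPUD1: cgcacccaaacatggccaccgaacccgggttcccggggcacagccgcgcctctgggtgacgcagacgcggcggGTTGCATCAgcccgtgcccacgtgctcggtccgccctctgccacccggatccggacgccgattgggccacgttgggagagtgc
CHAC1: ctcccctgccGTTGCATCActcctgccag
ASNS: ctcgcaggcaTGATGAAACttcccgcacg
XBP1: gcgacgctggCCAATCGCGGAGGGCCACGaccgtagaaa
HSPA5: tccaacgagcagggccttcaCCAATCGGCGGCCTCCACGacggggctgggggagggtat
HERPUD1 and CHAC1 carry the ATF4 element on the opposite strand, in the same 9 letters, while ASNS carries it on its own strand.

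The values are FPKM, fragments scaled to exon length and to the mapped fragments of the library, so levels can be set side by side between genes. The libraries rested on 9015056 to 11966130 reads, worked out from what 1 read was worth in FPKM. SKA3 itself was at 9.40 and 9.64 FPKM in NC and at 3.77 and 4.12 in SKA3-KD, with a log2 fold change of -1.09 (SE 0.07, adjusted p = 0.0081). The level of SKA3 fitted the labels of all 4 libraries. Its call, like that of each gene in the table, was lost without NC 1 or without NC 2, where limma called 0 genes. The squamous label held in part. Of 12 squamous epithelial markers, 11 were in the table and 4 or 5 per library reached 1 FPKM, led by SFN and KRT17, while KRT5 and KRT14 were each listed at 0 in 3 libraries and TP63 lay between 0.348 and 0.580 FPKM. The summed level of that list was 196.9 and 213.7 FPKM in NC and 170.1 and 192.5 in SKA3-KD. Of its 5 markers tested by limma, KRT17 alone passed, and all 5 had a negative log2 fold change. KRT17 was at 45.6 and 49.1 FPKM in NC and at 29.4 and 35.7 in SKA3-KD (log2 fold change -0.53, adjusted p = 0.0396). Of 11 markers of immune, endothelial and stromal cells, 9 were in the table and 3 reached 1 FPKM (COL1A1, DCN and PDGFRB), with PTPRC, CD68 and COL1A2 at or near 0. The summed level of this list was 14.9 and 15.3 FPKM in NC and 8.56 and 9.61 in SKA3-KD. DCN, the matrix proteoglycan decorin, accounted for most of that step, from 8.40 and 8.36 FPKM to 2.48 and 2.35. PDGFRB, a receptor of mesenchymal cells, lay the other way without overlap, at 2.88 and 2.46 FPKM in NC and 3.19 and 4.13 in SKA3-KD (log2 fold change 0.34, adjusted p = 0.165), and passed as higher with limma voom (adjusted p = 0.0171). The part of these marker changes in the results that follow was not tested.

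All 10 members had a lower mean log2 level in SKA3-KD than in NC, and the steps were small. The log2 fold changes, on log2(FPKM + 1), ran from -0.42 for PHGDH to -0.06 for DDIT3, with a median of -0.22 against 0.01 over the 12645 genes tested. A log2 fold change below 0 was found for 48.4% of all genes tested. In 7 members the libraries of the groups did not overlap, each SKA3-KD value lying below each NC value, as was the case for 29.2% of genes. Past the threshold, an adjusted p under 0.05 by limma over all genes, 2 members were lower, PHGDH and HERPUD1, against 6.11% of all genes. None was higher, against 6.16% of all genes, with 0 members higher at an unadjusted p under 0.05 and 0 by limma voom on the recovered reads. At an unadjusted p under 0.05, 5 members were lower, against 15.1% of all genes. With groups of 2, an exact permutation test of a single gene cannot go below p = 0.333, and the calls rest on the spread that limma shares between genes. In bulk RNA, fewer cells of a type and less RNA per cell cannot be told apart.

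**Figure D1:**
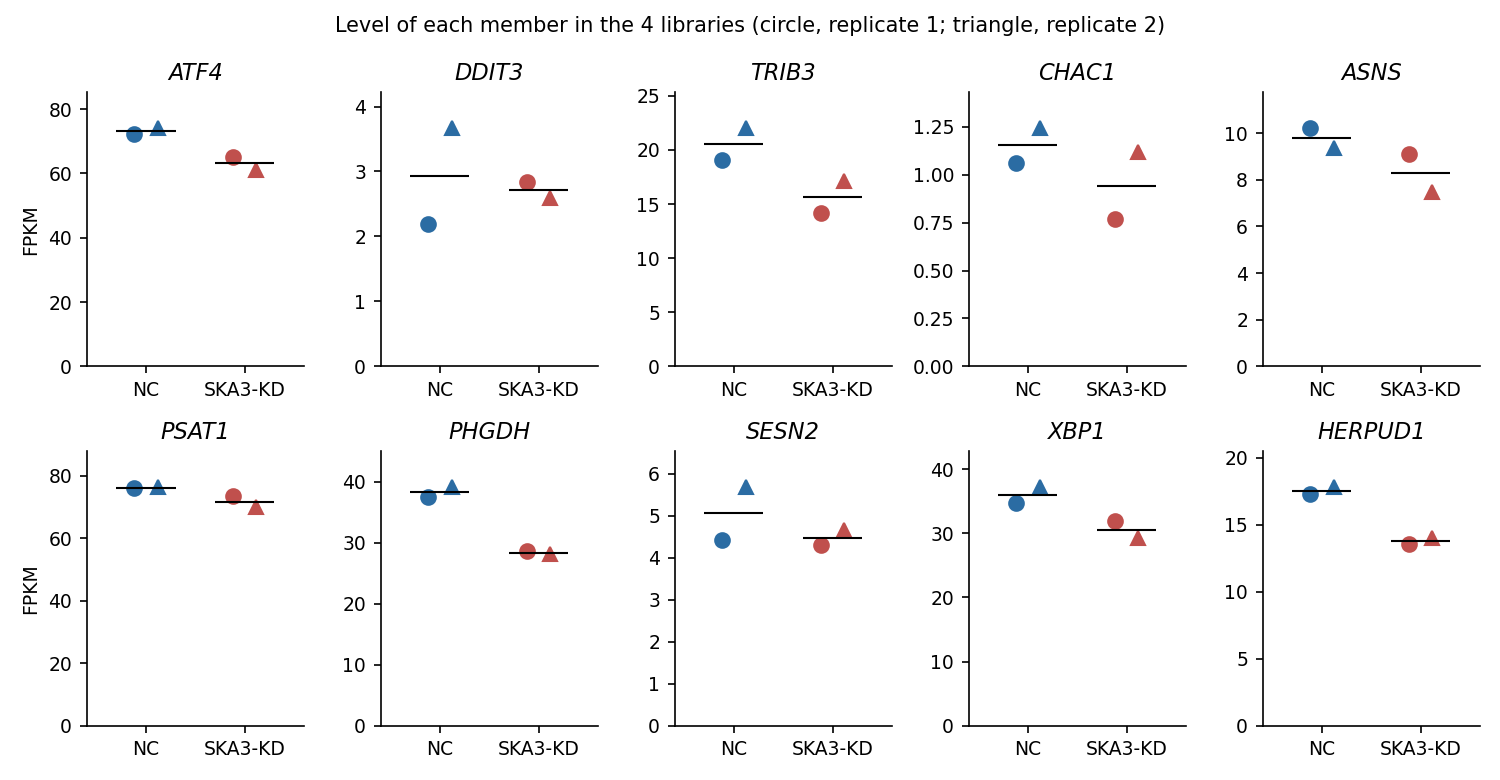
FPKM of each of the 10 members in the NC libraries (blue) and the SKA3-KD libraries (red), with circles for replicate 1, triangles for replicate 2 and a line at the mean of each group. The vertical axes start at 0 and differ between genes. PHGDH and HERPUD1 show tight pairs that lie apart, whereas the DDIT3 pair of NC, at 2.20 and 3.67 FPKM, spans both SKA3-KD values.

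The levels covered a wide range. In NC the order from the highest to the lowest was PSAT1, ATF4, PHGDH, XBP1, TRIB3, HERPUD1, ASNS, SESN2, DDIT3 and CHAC1, and no neighbours in that order overlapped between their libraries. In SKA3-KD the order was the same but for PHGDH and XBP1. PHGDH lay above XBP1 in both NC libraries and below it in both SKA3-KD libraries. TRIB3 and HERPUD1 were the closest neighbours in SKA3-KD, where the lower TRIB3 value, 14.2 FPKM, and the higher HERPUD1 value, 14.0 FPKM, nearly met. At the low end, CHAC1 rested on 16 to 27 reads per library and DDIT3 on 31 to 39, and the intervals of these genes were the widest of the set, so a small change in either was not detectable at this depth.

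ATF4 (ENSG00000128272, chr22:39519695-39522685, + strand, GENCODE 29 on GRCh38, as for all gene positions here) is the hub of the set. It was at 72.3 and 74.2 FPKM in NC and at 65.2 and 61.1 FPKM in SKA3-KD. Both SKA3-KD libraries lay below both NC libraries. The group means were 73.2 ± 1.35 and 63.1 ± 2.86 FPKM (SD, n = 2). The log2 fold change was -0.21 (SE 0.06, 95% interval -0.36 to -0.06), with an unadjusted p of 0.0165 and an adjusted p of 0.0843, so ATF4 did not pass the threshold. On the recovered reads, 1668 to 2175 per library, limma voom gave an adjusted p of 0.030.

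TRIB3 (ENSG00000101255, chr20:362835-397559, + strand) encodes a pseudokinase that is induced by ATF4 and CHOP and restrains both. It stood at 19.1 and 22.0 FPKM in NC and at 14.2 and 17.2 FPKM in SKA3-KD. The groups did not overlap, but the spread within each was wide, 20.6 ± 2.10 against 15.7 ± 2.13 FPKM (SD, n = 2). Its log2 fold change of -0.37 (SE 0.12, 95% interval -0.68 to -0.07) was the second in size among the members and did not pass (adjusted p = 0.107). It did pass in 3 of 9 other settings with all libraries, among them limma voom (adjusted p = 0.0073).

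The other stress effectors in the set showed no separation of the groups. DDIT3 (ENSG00000175197, chr12:57516588-57521737, - strand) encodes CHOP, the factor that carries prolonged ER stress towards cell death. It was at 2.20 and 3.67 FPKM in NC and at 2.84 and 2.59 FPKM in SKA3-KD, with NC 2 the highest library and NC 1 the lowest. Its log2 fold change was -0.06 (SE 0.20, 95% interval -0.56 to 0.44, adjusted p = 0.87), and it was 0.21 without NC 2. DDIT3 shares 355 exon bases with MARS, which runs on the opposite strand at 16.0 to 18.5 FPKM, and since no source used here says whether strand was used in counting, its values are uncertain.

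CHAC1 (ENSG00000128965, chr15:40952962-40956519, + strand) encodes an enzyme that degrades glutathione and is a sensitive target of ATF4. It was listed at 1.06 and 1.24 FPKM in NC and at 0.766 and 1.12 FPKM in SKA3-KD. Only SKA3-KD 1 lay below both NC libraries. The log2 fold change was -0.15 (SE 0.18, 95% interval -0.61 to 0.31, adjusted p = 0.608). It was -0.28 with a pseudocount of 0.1 and -0.27 with limma voom, and did not pass in either. SESN2 (ENSG00000130766, chr1:28259527-28282491, + strand) encodes sestrin 2, which dampens mTORC1 when leucine is short. It was at 4.43 and 5.69 FPKM in NC and at 4.30 and 4.67 FPKM in SKA3-KD. NC 2 stood apart from the other 3 libraries, and without it the log2 fold change moved from -0.14 (SE 0.12, 95% interval -0.45 to 0.18, adjusted p = 0.494) to 0.01.

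Among the amino acid enzymes, PHGDH fell and PSAT1 and ASNS did not pass. PHGDH (ENSG00000092621, chr1:119648411-119744226, + strand) catalyses the first step of serine synthesis from the glycolytic intermediate 3-phosphoglycerate. It stood at 37.6 and 39.1 FPKM in NC and at 28.7 and 28.1 FPKM in SKA3-KD. The pairs lay close together and far apart from each other, with means of 38.4 ± 1.10 and 28.4 ± 0.423 FPKM (SD, n = 2). PHGDH fell by 26.0% in mean FPKM, with a log2 fold change of -0.42 (SE 0.06, 95% interval -0.57 to -0.27, adjusted p = 0.0202). It passed in 7 of 9 other settings with all libraries. The exceptions were limma without the filter on low values (adjusted p = 0.0548) and limma without a mean-variance trend (adjusted p = 0.0514). With 1 library left out the fold change stayed between -0.45 and -0.39 and the call was lost each time, with an adjusted p of 0.0804 without NC 1, 0.0765 without NC 2, 0.0972 without SKA3-KD 1 and 0.104 without SKA3-KD 2.

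PSAT1 (ENSG00000135069, chr9:78297143-78330093, + strand), the transaminase of the next step, had the highest level of the members, 76.0 and 76.4 FPKM in NC and 73.4 and 69.9 FPKM in SKA3-KD. Both SKA3-KD libraries were below both NC libraries, by a small step of -0.09 on the log2 scale (SE 0.06, 95% interval -0.23 to 0.05, adjusted p = 0.341). ASNS (ENSG00000070669, chr7:97852118-97872542, - strand), asparagine synthetase, was at 10.2 and 9.34 FPKM in NC and at 9.09 and 7.46 FPKM in SKA3-KD. The groups did not overlap, and NC 1 was the highest library, the only member for which NC 2 was not. The log2 fold change was -0.22 (SE 0.11, 95% interval -0.50 to 0.06, adjusted p = 0.233). ASNS shares 1985 exon bases with AC079781.5 on the same strand, a gene model not analysed here, and its values are uncertain to that extent.

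In the ER arm, HERPUD1 fell and XBP1 did not pass. HERPUD1 (ENSG00000051108, chr16:56932048-56944863, + strand) encodes an ER membrane protein that helps to assemble the machinery of ER-associated degradation. It stood at 17.3 and 17.8 FPKM in NC and at 13.6 and 14.0 FPKM in SKA3-KD. The means were 17.5 ± 0.377 and 13.8 ± 0.307 FPKM (SD, n = 2), and the gap was many times the spread within either pair. HERPUD1 fell by 21.4% in mean FPKM, with a log2 fold change of -0.33 (SE 0.06, 95% interval -0.48 to -0.17, adjusted p = 0.0357). It passed in 7 of 9 other settings with all libraries, and lost the call without the filter on low values (adjusted p = 0.0755) and without a trend (adjusted p = 0.0695). It was also lost without NC 1 (adjusted p = 0.111), NC 2 (0.113), SKA3-KD 1 (0.169) or SKA3-KD 2 (0.136), with fold changes between -0.35 and -0.31.

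XBP1 (ENSG00000100219, chr22:28794555-28800597, - strand) encodes the transcription factor that IRE1 activates by splicing. It was at 34.7 and 37.2 FPKM in NC and at 31.9 and 29.3 FPKM in SKA3-KD. The groups did not overlap, and the log2 fold change was -0.23 (SE 0.07, 95% interval -0.41 to -0.04) with an unadjusted p of 0.0251 and an adjusted p of 0.108. Limma voom gave an adjusted p of 0.034. These values add spliced and unspliced XBP1 mRNA together.

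**Figure D2:**
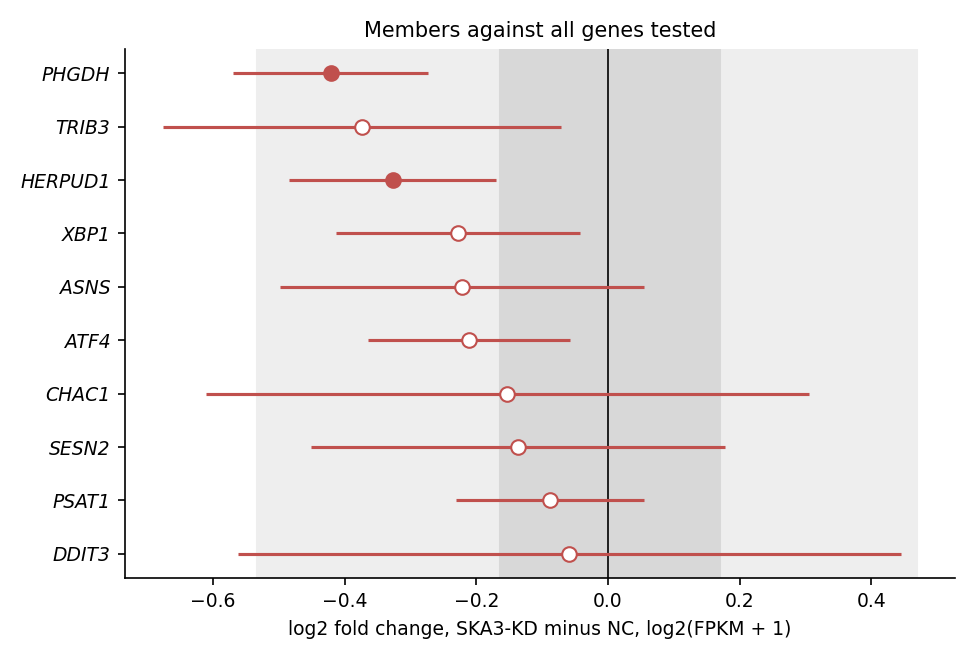
Log2 fold change, SKA3-KD minus NC on log2(FPKM + 1), of each member with its 95% interval from limma. Filled points passed an adjusted p under 0.05, the dark band holds the middle of all genes tested from the 25th to the 75th percentile (-0.16 to 0.17) and the light band runs from the 5th to the 95th (-0.53 to 0.47). All 10 points lie left of 0, 6 of them left of the dark band, and none lies beyond the light band.

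The libraries did not share the step equally. Set against the NC mean of each gene, the median over the members was -0.18 for replicate 1 of SKA3-KD and -0.25 for replicate 2, and it was -0.04 and 0.04 for the NC replicates. NC 2 was the highest of the 4 libraries for 9 members. SKA3-KD 1 was the lowest for 4, TRIB3, CHAC1, SESN2 and HERPUD1, SKA3-KD 2 for 5, and NC 1 for DDIT3.

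**Figure D3:**
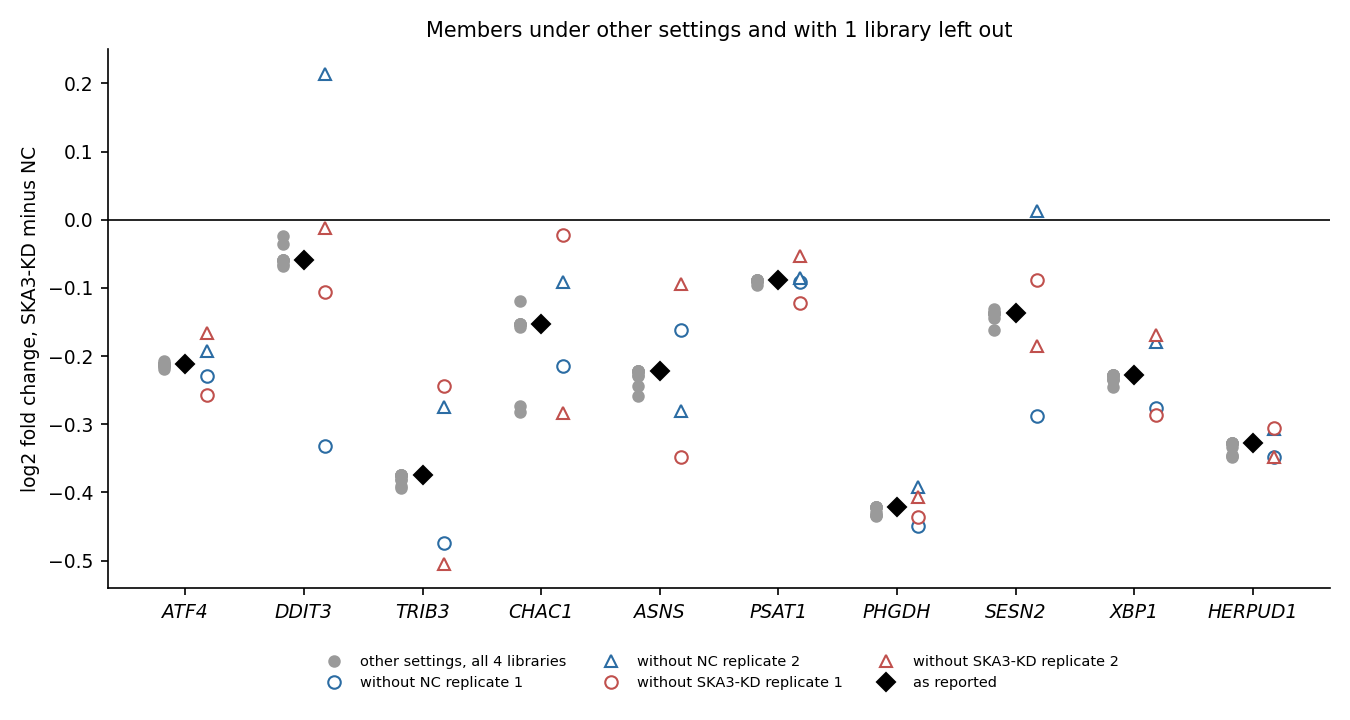
Log2 fold change of each member as reported (black diamonds), under the other settings with all 4 libraries (grey) and with 1 library left out (open symbols). The values of DDIT3 and SESN2 cross 0 without NC 2, at 0.21 and 0.01, while those of PHGDH and HERPUD1 stay within a narrow range.

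The surrounding pathway genes were grouped in 11 lists that hold 168 genes, of which 158 were tested, each counted once. Of these, 19 passed as lower and 5 as higher, with a median log2 fold change of -0.02 beside -0.22 for the members. Over all genes tested, 6.11% passed as lower and 6.16% as higher, and these shares also stand behind the counts of each list below. No call of a gene in these lists survived every omission of 1 library. Without NC 1 or NC 2 none of the 24 was called by limma, without SKA3-KD 1 CREB3L2 and KDELR3 were, and without SKA3-KD 2 CREB3L2 was. All 24 kept their direction in these fits. With all 4 libraries, 24 of 24 passed with limma voom, 7 without a mean-variance trend and 1, CREB3L2, without the filter on low values.

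Upstream of ATF4, the kinases, phosphatases and subunits that set eIF2alpha phosphorylation numbered 18, of which 0 passed as lower and 1 as higher, with a median of 0.05. At an unadjusted p under 0.05, 3 of them were lower and 4 higher, and limma voom called 2 lower and 3 higher. PPP1R15B, the constitutive partner of the phosphatase that reverses this phosphorylation, stood at 39.7 and 39.7 FPKM in NC and at 49.7 and 48.9 FPKM in SKA3-KD. It rose by a log2 fold change of 0.31 (SE 0.05, adjusted p = 0.0313).

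Of 9 transcription factors that act beside ATF4, 2 passed as lower and 0 as higher, with a median of -0.20. At an unadjusted p under 0.05, 4 were lower and 1 was higher, and the counts were the same for limma voom. ATF3, itself a target of ATF4, was at 8.06 and 10.6 FPKM in NC and at 4.88 and 4.85 FPKM in SKA3-KD. The SKA3-KD pair was nearly identical and lay well below both NC libraries, with a log2 fold change of -0.80 (SE 0.13, adjusted p = 0.0265). NUPR1, a small stress-induced chromatin protein, fell from 31.2 and 34.1 FPKM to 22.9 and 23.2 FPKM (log2 fold change -0.48, SE 0.07, adjusted p = 0.0212).

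The metabolic genes in the lists did not move as one group. Beside PHGDH and PSAT1, 7 genes of serine and one-carbon synthesis were tested, with a median of 0.05, and none passed by limma in either direction. One was lower and 1 higher at an unadjusted p under 0.05, and the same counts held for limma voom. The smallest p values belonged to MTHFD1L, a mitochondrial formate-producing enzyme, at 26.4 and 25.3 FPKM in NC and 30.2 and 29.5 in SKA3-KD (log2 fold change 0.20, adjusted p = 0.0946), and to ALDH1L2, at 1.64 and 1.66 FPKM in NC and 0.821 and 0.968 in SKA3-KD (log2 fold change -0.49, adjusted p = 0.0949). These genes stood on opposite sides of 0. ALDH1L2, the lower in level, depended on the settings. Its log2 fold change was -0.82 with a pseudocount of 0.1 (adjusted p = 0.110) and -0.88 with limma voom (adjusted p = 0.00043), and it also passed without a trend (adjusted p = 0.0474). MTHFD1L passed with limma voom (adjusted p = 0.0442). Among 9 tested enzymes for other amino acids (median -0.04), CTH, which makes cysteine from cystathionine, was the 1 that fell. Its values were 14.0 and 12.8 FPKM in NC and 7.86 and 7.69 FPKM in SKA3-KD (log2 fold change -0.71, SE 0.07, adjusted p = 0.0123).

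Of 10 amino acid transporters, with a median of 0.00, 1 rose and none passed as lower by limma. At an unadjusted p under 0.05, 1 was lower and 2 were higher, and limma voom gave the same counts. SLC7A11, the light chain of the cystine importer xCT and a known ATF4 target, was at 7.70 and 8.13 FPKM in NC and at 12.3 and 11.3 FPKM in SKA3-KD. Both SKA3-KD libraries lay above both NC libraries, with a log2 fold change of 0.52 (SE 0.07, adjusted p = 0.0212). CTH and SLC7A11, which serve the supply of cysteine from within and from outside the cell, thus changed in opposite directions. The cytosolic aminoacyl-tRNA synthetases, 20 enzymes that load tRNAs and include many ATF4 targets, had a median of 0.06, and none passed by limma in either direction. At an unadjusted p under 0.05, 1 was lower and 3 were higher, and limma voom called 0 lower and 1 higher. The smallest p values were those of VARS1, whose log2 fold change was 0.28 (adjusted p = 0.0752), and of GARS1, at -0.16 (adjusted p = 0.121). VARS1 passed with limma voom (adjusted p = 0.0041), with the replicate block (0.0374) and with a mean of at least 5 FPKM (0.0361).

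The further stress effectors under ATF4 had a median near that of the members. Of 15 genes, 11 were tested, with a median of -0.22. A negative log2 fold change was found for 10 of them, against 48.4% of all genes tested. In 7 the SKA3-KD values lay below the NC values without overlap, against 29.2% of all genes. ATF3 was the 1 gene that passed as lower. None passed as higher, and 0 were higher at an unadjusted p under 0.05 or by limma voom, while 3 were lower at an unadjusted p under 0.05 and 4 by limma voom.

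**Figure D4:**
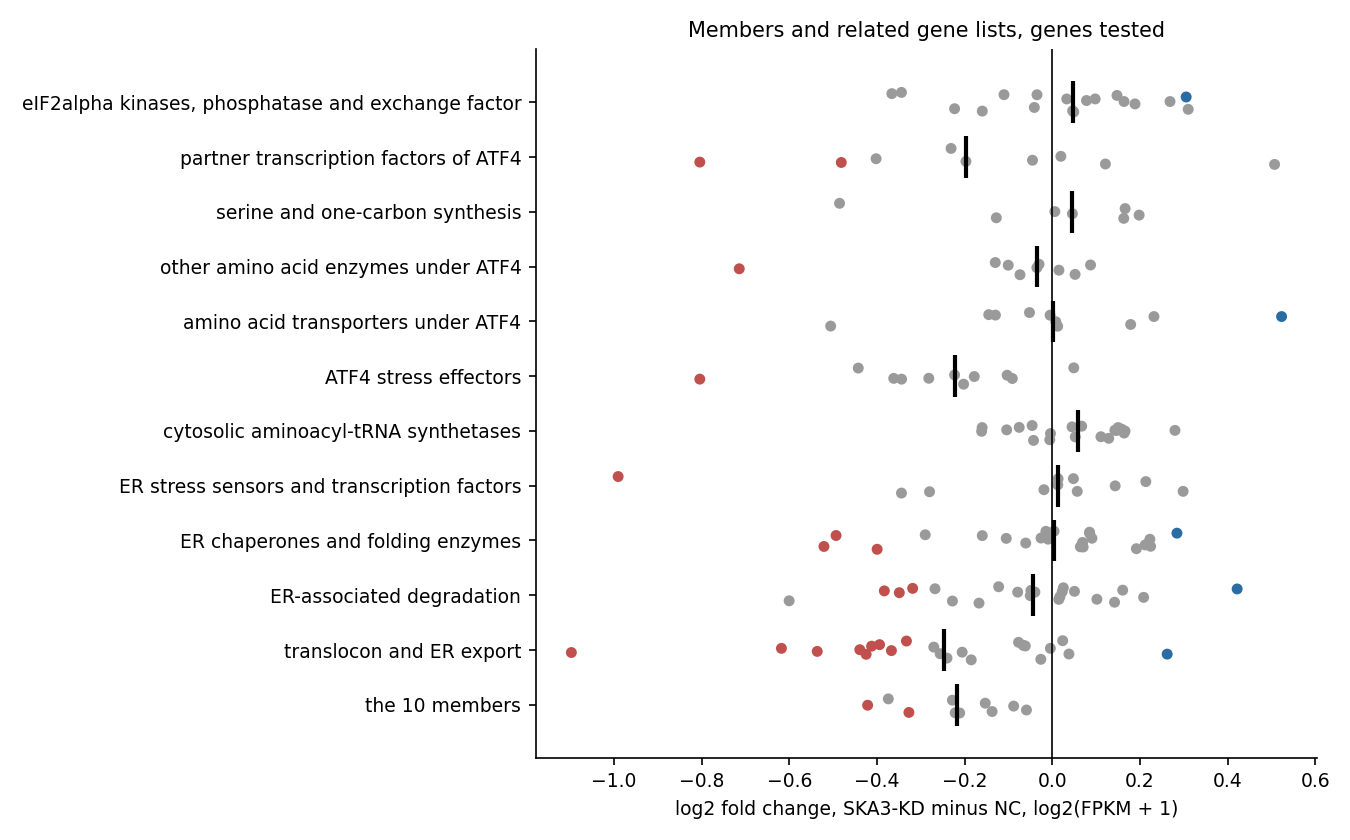
Log2 fold change, SKA3-KD minus NC on log2(FPKM + 1), of the genes tested in each of the 11 related lists and of the 10 members, with red and blue points for genes that passed as lower and higher, grey points for the rest and a black bar at the median of each list. The medians of the members (-0.22), the further stress effectors (-0.22), the partner transcription factors (-0.20) and the translocon and ER export genes (-0.25) lie to the left of the others, which range from -0.04 to 0.06. ATF3, DNAJC3, EIF2AK3 and PPP1R15A appear in more than 1 list.

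In the ER, the sensors and their transcription factors had a median of 0.01 over 11 genes tested, and 1 fell. CREB3L2, an ER-anchored transcription factor cut in the manner of ATF6, stood at 37.9 and 38.3 FPKM in NC and at 18.8 and 18.6 FPKM in SKA3-KD. The replicates nearly coincided within each group, with a log2 fold change of -0.99 (SE 0.06, adjusted p = 0.0065). None passed as higher by limma. At an unadjusted p under 0.05, 2 were lower and 2 higher, and limma voom called 3 lower and 2 higher.

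HSPA5 rose where HERPUD1 fell. It was at 393.1 and 420.2 FPKM in NC and at 507.4 and 483.3 FPKM in SKA3-KD, with a log2 fold change of 0.28 (SE 0.06, adjusted p = 0.0470). Both SKA3-KD libraries lay above both NC libraries. The call was narrow, and it was lost with median-of-ratios scaling (adjusted p = 0.0529), without the filter (0.200) and without a trend (0.103). HSPA5 and XBP1 both carry the ER stress response element in the form that was searched above. The 23 chaperones and folding enzymes tested, HSPA5 among them, had a median of 0.00. At an unadjusted p under 0.05, 4 were lower and 5 higher, and limma voom called 3 lower and 3 higher. By limma 3 passed as lower and 1, HSPA5, as higher. The 3 that fell were DNAJB9, a BiP cofactor and known XBP1 target (5.24 and 5.51 FPKM in NC, 3.88 and 3.05 in SKA3-KD, log2 fold change -0.52, adjusted p = 0.0493), the disulfide reductase DNAJC10 (log2 fold change -0.49, adjusted p = 0.0231) and TXNDC11 (log2 fold change -0.40, adjusted p = 0.0278). The call of DNAJB9 was narrow too, and it was lost with quantile normalization (adjusted p = 0.0538), with the replicate block (0.0627), without a trend (0.0742) and without the filter (0.146).

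ER-associated degradation, the process that HERPUD1 serves, had 22 genes tested and a median of -0.04, and 3 passed as lower. DERL2, a channel component, was at 7.30 and 7.73 FPKM in NC and at 5.49 and 5.56 FPKM in SKA3-KD (log2 fold change -0.38, adjusted p = 0.0344). EDEM2, which trims mannose from misfolded glycoproteins, fell by 0.35 on the log2 scale (adjusted p = 0.0362), and FAF2 fell by 0.32 (adjusted p = 0.0378).

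The translocon and ER export genes held the most calls of any list. This list, like the others, was chosen with earlier results of these data known, so its counts are a description and no set test was run. Of 22 genes tested, 9 passed as lower and 1 as higher, against 6.11% and 6.16% of all genes, with a median of -0.25. A negative log2 fold change was found for 19, against 48.4% of all genes. In 16 the SKA3-KD values lay below the NC values without overlap, against 29.2%. KDELR3, a receptor that returns chaperones to the ER, was at 12.1 and 10.7 FPKM in NC and at 5.65 and 4.04 FPKM in SKA3-KD (log2 fold change -1.10, SE 0.15, adjusted p = 0.0202). SEC24D, a cargo adaptor of COPII vesicles, stood at 5.29 and 5.49 FPKM in NC and at 3.22 and 3.11 in SKA3-KD (log2 fold change -0.62, adjusted p = 0.0174). SEC61G, a subunit of the translocon channel, was at 144.4 and 122.1 FPKM in NC and at 93.2 and 89.3 in SKA3-KD (log2 fold change -0.54, adjusted p = 0.0303). The others that fell were SEC61B, SSR1, SSR2, SSR4, SEC31A and SEC23B, which serve the channel, its associated complex and the COPII coat. SRPRA, a subunit of the receptor that docks ribosomes at the ER, rose by 0.26 on the log2 scale (adjusted p = 0.0409).

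The genes of these lists whose levels followed ATF4 most closely over the 4 libraries were SEC61B (Pearson r = 0.9996), DNAJB9 (r = 0.998) and ERN1, the gene of IRE1 (r = 0.989). They were the highest of 158 genes compared. With 4 libraries in 2 groups, such values describe the step between groups as much as the order within them.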

How the data were processed

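Gene-level FPKM values were deposited for 4 libraries, with columns that match the sample titles. Per the labels, RNA was extracted with Trizol and libraries followed Illumina protocols. The submitters' processing notes name hg19, HISAT2, Bowtie2 2.2.8, StringTie 1.3.1 and Cuffdiff 2.1.1 without roles, and the strand setting is not given in the sources used here. Identifiers were matched to GENCODE 29 (GRCh38), which gave symbols to 27199 of 28729 genes. That build differs from the submitters', so its positions were used only to state where genes lie and which exon bases members share with other genes. Its exon lengths were used for reads.

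SKA3-KD was compared with NC by limma 3.58.1 in R 4.3.3 (lmFit, eBayes with a trend) on log2(FPKM + 1). Genes entered at an average of 1 FPKM or more, 12645 in all, and p-values were adjusted by the Benjamini-Hochberg method (threshold 0.05). Because of the pseudocount, fold changes of low genes come out too small. As alternatives, the pseudocount was set to 0.1, the filter was dropped or raised to 5 FPKM, and libraries were scaled by median of ratios or quantile-normalized. The trend was left out, eBayes was made robust, the replicate number was added as a block, the threshold was set to 0.1, and each library was omitted in turn. Limma voom on reads recovered from the FPKM steps was added after seeing the data. The GENCODE exon length gave whole reads, within 0.02, for 69.0% of genes above 0. For 8054 other genes the reads rest on another length, searched for so that all 4 values came out whole, and the remaining values were rounded. Replicates differed by more than sampling noise (chi-square per degree of freedom 3.37 in NC and 3.36 in SKA3-KD). The steps were tested on simulated data. Python 3.11.15 with pandas 2.3.3 and matplotlib 3.10.9 did the rest.

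The members, the lists and the tests were chosen with earlier results of these data known, and the lists were written from general knowledge of the pathways. The genes named are the members, SKA3, HSPA5, every list gene past the threshold (values for at most 3 per list and direction, or for the 2 with the smallest p where none passed) and the 3 most like ATF4. The result of 1 list gene is not reported here.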

Additional observations from a re-analysis of the deposited data

How the results depend on the processing

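Over all genes, 772 were lower and 779 higher. These counts were 81 and 48 without the filter, 381 and 312 without a trend, 1356 and 1442 at an adjusted p under 0.1, and 1560 and 1754 with limma voom. With 1 library left out they ranged from 0 to 135 lower and from 0 to 46 higher. They were 0 and 0 by limma without NC 1 (1486 and 1638 at an unadjusted p under 0.05) and without NC 2 (1555 and 1797), 53 and 13 without SKA3-KD 1, and 135 and 46 without SKA3-KD 2. Of the members, 2 were lower, against 0 without the filter, 0 without a trend (5 at an unadjusted p under 0.05 in each), 5 with limma voom and 0 with any 1 library left out (2 to 5 at an unadjusted p under 0.05). The members' median of -0.22 ranged from -0.28 to -0.18 with 1 library left out, the lowest without NC 1. With 1 library left out DDIT3 ranged from -0.33 to 0.21 and SESN2 from -0.29 to 0.013, each lowest without NC 1 and above 0 without NC 2. With a mean FPKM of at least 5, 7 members were left in the fit and 3 were called. That fit held fewer genes and called 887 of all genes lower and 993 higher. The cause was not tested, except that fits without 1 library have fewer samples and the fit without the filter tests more genes.

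Same-numbered libraries deviated together only weakly (r = 0.0973 over 12645 genes), and the numbers were not taken to pair the samples. With a replicate block, 3 members were lower, TRIB3 joining PHGDH and HERPUD1, and 965 and 1002 of all genes were called.

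For each member and setting with all 4 libraries, 87 results kept direction and call, 6 gained a call and 4 lost one. CHAC1 and DDIT3 rested on 16 to 39 reads per library, which limits the precision of their values.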
